A study of Drosophila melanogaster with 30 samples.

Results

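The male dosage compensation complex of Drosophila melanogaster was followed through its 7 genes, the noncoding RNA genes lncRNA:roX1 and lncRNA:roX2 and the protein genes msl-1, msl-2, msl-3, mle and mof, in RNA sequencing of male brains. The 7 members were found by name in the deposited table of estimated counts, which holds 17895 gene rows among 24278 features. All 7 passed the filter on low counts, which left 11269 genes for testing. The study compared 5 genotypes under 2 housings, with flies kept alone (SH) or in a group (GH), in 10 groups of 3 libraries, and each library came from a pool of 30 brains.

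The mutant genotypes, as labelled, were w+/Y; Or47b2/3;+/+ (Or47b), w+/Y; +/+; Or67dGAL4/GAL4 (Or67d), w+/Y; +/+; fruLexA/4-40 (fru) and w-/Y; +/+; dsxf00683-d07058/f01649-d09625 (dsx), and the control was the wild-type strain Canton-S (CS). Or47b and Or67d are genes of pheromone receptors, and fru and dsx are genes of transcription factors that direct male and female development and behaviour. The dsx males were also labelled w-, so the w allele and dsx cannot be told apart in that genotype. The labels give no age for any group. All alleles were carried in the whole animal, and whole brains were sequenced, so fewer cells that express a gene and less of its RNA per cell cannot be told apart.

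Male flies carry a single X chromosome and raise the output of its genes to balance the autosomes. The MSL complex does this by coating the male X and acetylating histone H4 at lysine 16 over active genes. MSL1 and MSL2 form its core, MSL3 reads a histone mark of transcribed genes, MLE is an RNA helicase that remodels the roX RNAs, and MOF is the acetyltransferase. The roX RNAs are made from the X, are partly redundant and are incorporated into the complex by MLE. In females the RNA-binding protein Sxl blocks the production of MSL2 protein, so the complex does not assemble.

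Gene counts per library ranged from 37312213 to 119778923. Levels are given in CPM (counts per mega-count), each gene's counts relative to the library's total of gene counts after scaling by the trimmed mean of M values (TMM), and 3 counts equalled 0.0282 to 0.0785 CPM. Changes were tested with edgeR, adjusted over all genes and called under 0.05. The p-values weigh a difference between groups against the spread between pools of brains within groups, estimated over all 10 groups. The mutated genes were read first. fru averaged 26.3 and 28.8 CPM in fru SH and fru GH, against 173 and 179 CPM in CS SH and CS GH, and dsx averaged 9.48 and 9.4 CPM in dsx SH and dsx GH, against 18.7 and 13.5 CPM in CS SH and CS GH. Or67d had 0 counts in the Or67d libraries, against 48 and 42 counts over CS SH and CS GH, and Or47b had at most 5 counts in any group, so it does not check the labels. w averaged 0.302 and 0.374 CPM in dsx SH and dsx GH, and 1.69 and 1.76 CPM in Or67d SH and Or67d GH, which are labelled w+, against 15.3 and 9.88 CPM in CS SH and CS GH. A deposited column called dissection assigned 6 libraries to AC and 24 to notAC. Replicate 3 of Or47b SH, Or47b GH, fru SH, fru GH and CS GH was AC, as was replicate 2 of CS SH, and every Or67d and dsx library was notAC. All models carried a term for AC. One library stood apart. In fru SH replicate 3, an AC library, the 3 yolk protein genes Yp1, Yp2 and Yp3, which fat body of females makes, summed to 2790 CPM. They summed to 646 to 855 CPM in the 6 dsx libraries, to 58.5 CPM in CS GH replicate 1 and to at most 15.1 CPM in the other 22 libraries. The main results on fru are therefore given with and without fru SH replicate 3. Neuronal markers (5 of 5 measured, elav among them) summed to 5920 to 9910 CPM over the 30 libraries.

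roX1 was among the most abundant RNAs of the male brain. It lies on the X chromosome at 3857230 to 3862697 on the minus strand (FBgn0019661, BDGP6, Ensembl annotation) with 5468 exonic bases. Its level ran from 3580 to 7020 CPM with a median of 5770 CPM over the 30 libraries, which put it at rank 9 of 11269 genes by mean CPM. Per exon length it reached 989 CPM per kb, rank 23 of 11259 genes with a length. It took 0.399% to 0.662% of all gene counts of a library. Its exons overlap those of ec, a gene on the opposite strand, over 392 bases, and whether strand was used in counting is not stated in the sources used here. ec itself had 0.61 to 2.47 CPM.

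roX2, the other X-linked roX gene, was present in every library at a far lower level. It lies on the X at 11579065 to 11580432 on the plus strand (FBgn0019660) with 1368 exonic bases. Its level ran from 51.9 to 160 CPM with a median of 98.5 CPM. Per exon length roX2 reached 73.7 CPM per kb (rank 819 of 11259), against 989 CPM per kb of roX1. The ratio of roX1 to roX2 in CPM was 40.5 to 71.6 in a library, with a median of 56.2. Both RNAs, which are known as male-specific in adults, were detected in all 30 libraries, which are all labelled male. In fru SH replicate 3, the library with yolk RNA, roX1 and roX2 had 3780 and 87.2 CPM, within the range of the others.

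The order of the group means of roX1 began with CS GH at 6360 ± 567 CPM (SD, n = 3) and dsx SH at 6340 ± 350 CPM and ended with Or67d GH at 4400 ± 407 CPM and CS SH at 4260 ± 631 CPM. The highest and lowest group means thus differed 1.49 times, and both belonged to CS. Or47b SH, Or47b GH, dsx GH and fru GH lay between 5440 and 6050 CPM, and Or67d SH and fru SH at 4720 and 4630 CPM, and each neighbour pair in the full order differed by less than the larger SD of the pair. The group means of roX2 ran from 124 ± 35.9 CPM in fru GH to 67.3 ± 15.7 CPM in CS SH, a ratio of 1.84. roX2 varied more between libraries than roX1, with a coefficient of variation of 26.3% against 18.8%. The 2 dsx groups were the tightest for roX1, with coefficients of variation of 5.51% in SH and 3.82% in GH.

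**Figure D1:**
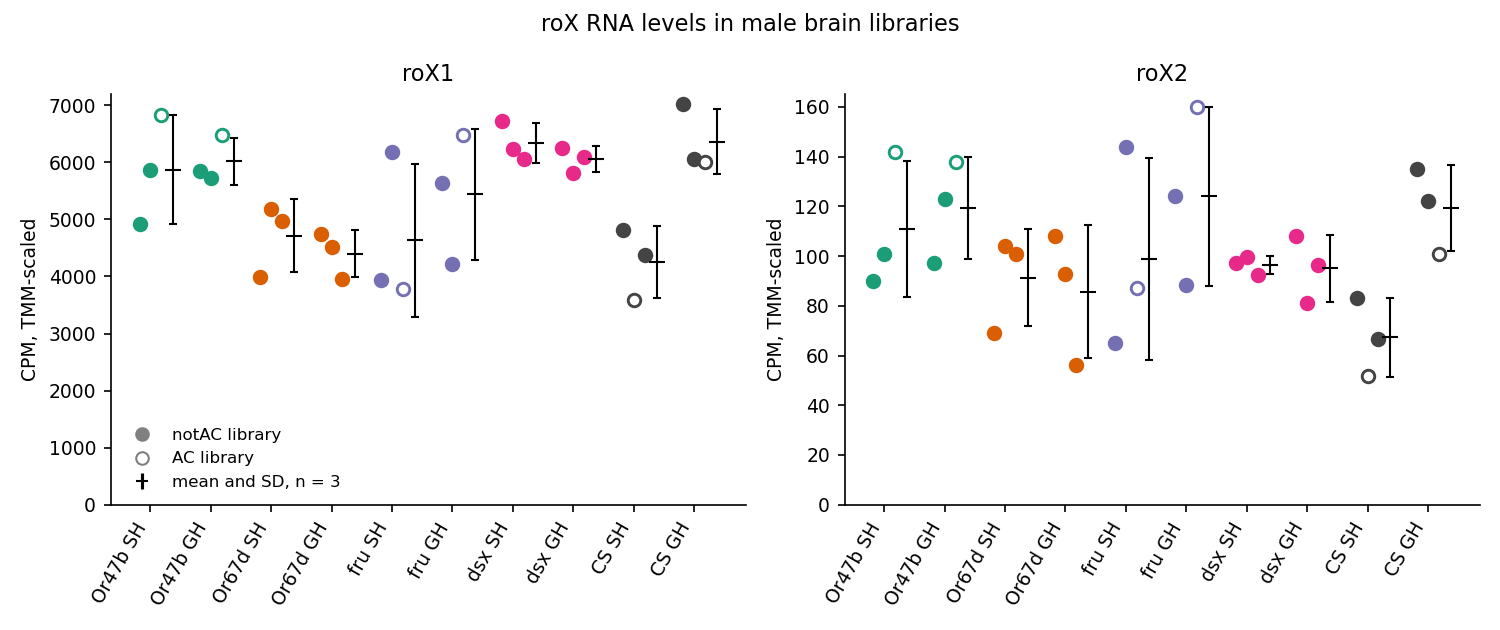
roX1 (left) and roX2 (right) in each library, in CPM of TMM-scaled gene counts, by genotype and housing. Points are libraries, open points are AC libraries, and bars are the mean and SD of 3 libraries. CS SH lies below CS GH for both RNAs, and the SH and GH libraries of each mutant overlap. Of all genes, 10.5% had all SH below all GH libraries in CS, and 2.15% to 10.6% in a mutant.

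The 5 protein genes were expressed at moderate levels. mle, the helicase gene (2R, 5974857 to 5980778), was the highest at 114 to 174 CPM (median 159 CPM, 33.2 CPM per kb). msl-2, whose product is the male-limited core subunit (2L, 3462218 to 3466112), had 35.3 to 80.5 CPM (median 66.4 CPM, 16.9 CPM per kb). msl-1, the scaffold gene (2L, 18683720 to 18688800), had 22.9 to 53.4 CPM (median 41.7 CPM, 8.23 CPM per kb). msl-3, the gene of the histone mark reader (3L, 7123213 to 7125533), had 14.4 to 22.5 CPM (median 19.9 CPM, 9.95 CPM per kb). mof, the acetyltransferase gene on the X (5873840 to 5876853), was the lowest at 8.24 to 14.1 CPM (median 12.5 CPM, 4.01 CPM per kb). All 5 lie on the minus strand. By level per kb roX1 stood above mle and mof by a wide margin, 989 CPM per kb against 33.2 and 4.01 CPM per kb. msl-3 shares 85 exonic bases with form3 on the opposite strand, and msl-2 holds mir-4971 and a transposon insertion on its own strand, so reads there could have been counted for either feature. Over the 30 libraries the levels of the protein genes varied less than those of roX2, with coefficients of variation of 9.52% for msl-3, 10.5% for mle, 14% for mof, 16.8% for msl-2 and 19.6% for msl-1.

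The protein genes and the roX RNAs differed in how they stood in the AC libraries. msl-1, msl-2, msl-3, mle and mof were lower in AC than in notAC libraries in the model, 5 of the 5, by log2 -0.48 ± 0.0792 (SE), -0.39 ± 0.0538, -0.16 ± 0.0563, -0.28 ± 0.0472 and -0.44 ± 0.0687, with edgeR adjusted p of 2.84e-05, 4.91e-06, 0.0177, 3.89e-05 and 1.53e-05. Of all genes tested, 54.7% passed for AC and 28.1% passed as lower. roX1 and roX2 had log2 0.01 ± 0.107 (95% interval -0.21 to 0.23) and 0.08 ± 0.167 (-0.26 to 0.43), neither passing. Median levels of msl-2 were 51.3 CPM over the 6 AC libraries, against 68.8 CPM over the 24 notAC libraries. The AC library of CS GH was an exception, with 41.2 CPM of msl-1 between 39.6 and 43.2 CPM in the other CS GH libraries. Photoreceptor markers (6 of 6 measured) summed to 303 to 996 CPM in AC libraries, against 42 to 630 CPM in notAC libraries, and muscle markers (5 of 5) to 44.7 to 148 CPM against 5.63 to 92.8 CPM. Fat body markers (5 of 5) summed to 878 to 2030 CPM in AC libraries, against 455 to 1350 CPM in notAC libraries. Without the dsx libraries the notAC range was 455 to 969 CPM. Of the 5 fat body genes, Fbp1 and Fbp2 reached at most 0.703 and 0.138 CPM in any library. Haemocyte markers (4 of 4) summed to 36.9 to 174 CPM in AC libraries, against 26.8 to 75.2 CPM in notAC libraries. The part of these markers in the AC difference was not tested.

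**Figure D2:**
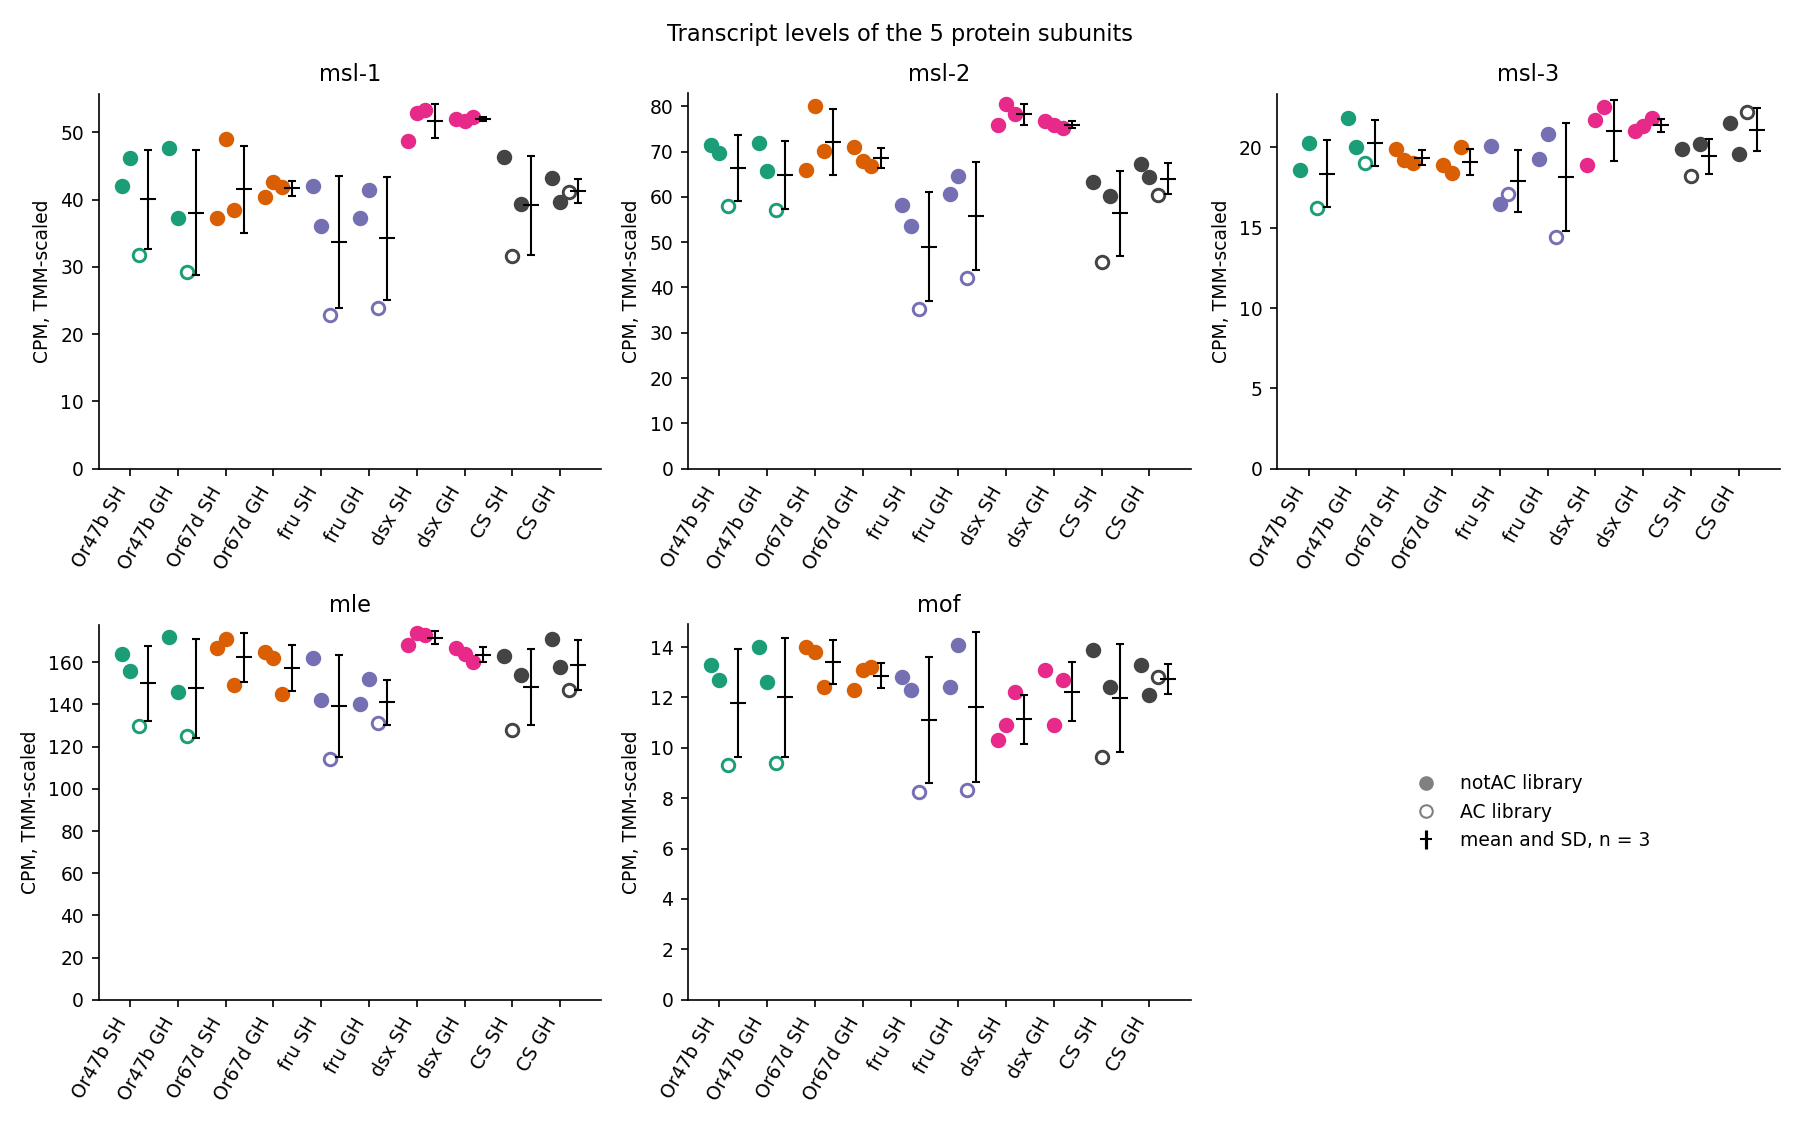
Levels of msl-1, msl-2, msl-3, mle and mof in each library, in CPM of TMM-scaled gene counts, by genotype and housing. Points are libraries, open points are AC libraries, and bars are the mean and SD of 3 libraries. The dsx libraries lie above all CS libraries for msl-1 and msl-2, and most open points are the lowest of their group.

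Single against group housing was the first contrast of the design. In CS brains both roX RNAs were lower after single housing, but neither passed the test. roX1 had 4820, 3580 and 4380 CPM in CS SH, against 7020, 6060 and 6010 CPM in CS GH. roX2 had 83.3, 51.9 and 66.6 CPM in CS SH, against 135, 122 and 101 CPM in CS GH. Every CS SH library was below every CS GH library for both RNAs, and the lowest CS SH library of each was the AC library. The log2 change of roX1 was -0.58 ± 0.175 (95% interval -0.94 to -0.22, edgeR adjusted p = 0.0759), a level 33% lower. That of roX2 was -0.83 ± 0.272 (-1.39 to -0.27, edgeR adjusted p = 0.0954). Over all genes tested 10.5% had all CS SH libraries below all CS GH libraries, against 2 of the 7 members.

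In the same CS comparison, 0 of 7 members passed the edgeR test, where 1.86% of all genes passed. Of the members 3 had an unadjusted p under 0.05, as did 2087 of the 11269 genes tested. DESeq2's Wald test called 1 of the 7, roX1 (log2 -0.57 ± 0.171, adjusted p = 0.0256), where it called 5.56% of all genes. The third member with a low unadjusted p was msl-2, with 63.2, 45.6 and 60.2 CPM in CS SH, against 67.2, 64.4 and 60.5 CPM in CS GH (log2 -0.20 ± 0.0863, adjusted p = 0.201). The highest CS SH library lay above the lowest CS GH library, which was an AC library, so the groups overlapped for msl-2. msl-1, msl-3, mle and mof had log2 changes between -0.12 and -0.10.

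The share of counts from mitochondrially encoded genes was 2.99% to 4.56% in CS SH, against 4.42% to 10.3% in CS GH. Where these ranges met, roX1 was at 6010 CPM in CS GH replicate 3, an AC library with a share of 4.42%. It was at 4820 CPM in CS SH replicate 1, a notAC library with a share of 4.56%. With the share as a covariate the CS difference was log2 -0.23 ± 0.119 (adjusted p = 0.422) for roX1 and -0.26 ± 0.18 (adjusted p = 0.575) for roX2. Within notAC libraries, 2 against 2, roX1 was at log2 -0.50 ± 0.192 (adjusted p = 0.35) and roX2 at -0.78 ± 0.31 (adjusted p = 0.372). Across genotypes, the libraries with the lowest roX1, at 3580 to 3990 CPM, were in CS SH, fru SH, Or67d SH and Or67d GH and had mitochondrial shares of 2.51% to 3.45%. The 6 dsx libraries had the highest mitochondrial shares, 12.4% to 14.1%, and roX2 there was 81.2 to 108 CPM. Neuronal markers also stood apart, at 5920 to 6710 CPM in CS SH, against 7290 to 8480 CPM in CS GH. Their part in the roX difference was not tested, and that of the mitochondrial share not beyond the covariate.

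**Figure D3:**
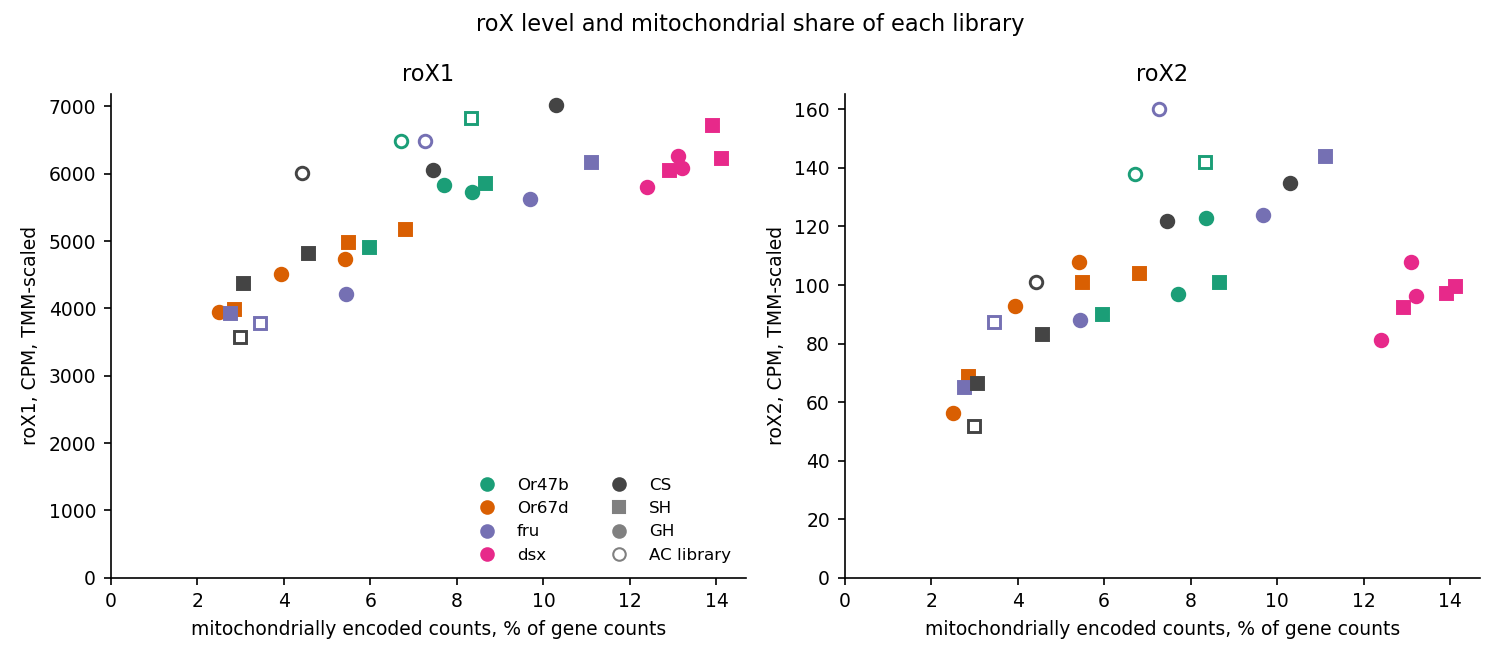
roX1 (left) and roX2 (right) in CPM of TMM-scaled gene counts against the share of gene counts from mitochondrially encoded genes, in %, 1 point per library. Colours are genotypes, squares SH, circles GH and open symbols AC libraries. The libraries lowest in roX1 have low shares. CS GH replicate 3, an AC library, has 6010 CPM of roX1 at a share of 4.42%. The dsx libraries, at 12.4% to 14.1%, have middling roX2.

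In the mutants, SH and GH libraries overlapped for both roX RNAs. Few genes of any kind had all SH below all GH libraries in Or47b (2.51% of all genes), Or67d (3.88%) and fru (2.15%). In dsx 10.6% did, against 10.5% in CS. roX1 had 4920, 5860 and 6830 CPM in Or47b SH, against 5840, 5730 and 6480 CPM in Or47b GH (log2 -0.04, 95% interval -0.40 to 0.32). It had 3990, 5180 and 4980 CPM in Or67d SH, against 4740, 4510 and 3950 CPM in Or67d GH (log2 0.10, -0.26 to 0.46). Neither receptor mutant showed a lower set of SH libraries. roX1 had 3940, 6180 and 3780 CPM in fru SH, against 5630, 4210 and 6480 CPM in fru GH (log2 -0.23, -0.59 to 0.13). It had 6730, 6230 and 6060 CPM in dsx SH, against 6260, 5810 and 6090 CPM in dsx GH (log2 0.07, -0.29 to 0.43). The roX1 change in fru was log2 -0.07 ± 0.191 without fru SH replicate 3, and over the 6 refits without 1 fru library it ran from -0.50 to -0.07. The fru libraries were widely scattered in both housings and the dsx libraries lay close together.

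Across the 7 members, 0 passed edgeR for housing in Or47b, Or67d, fru or dsx, where 0.213%, 0.0266%, 0.169% and 0.0177% of all genes passed. Only msl-2 in fru had an unadjusted p under 0.05 there (log2 -0.19 ± 0.0864, adjusted p = 0.442), where 1186 of the 11269 genes tested did. Without fru SH replicate 3 msl-2 was at log2 -0.09 ± 0.0883. An unadjusted p under 0.05 was found for 484, 340 and 382 of all genes in Or47b, Or67d and dsx. DESeq2 also called 0 members in these 4 genotypes, where it called 0.16% to 0.728% of all genes. mle was the 1 member whose SH and GH libraries did not overlap in a mutant, with 168, 174 and 173 CPM in dsx SH against 167, 164 and 160 CPM in dsx GH (log2 0.07, adjusted p = 1), where 10.8% of all genes did so in that direction. Averaged over the 5 genotypes, 0 members passed, where 1.28% of all genes did, and DESeq2 called 0 (2.07% of all genes). An unadjusted p under 0.05 was found for 0 members and for 1076 of the 11269 genes tested. In this average roX1 and roX2 were at log2 -0.14 ± 0.078 and -0.23 ± 0.121. They were -0.10 ± 0.0766 and -0.20 ± 0.125 without fru SH replicate 3. The housing changes of the mutants were not shown to differ from that of CS. The difference in the housing change of roX1, mutant minus CS, was log2 0.54 ± 0.247 in Or47b, 0.68 ± 0.247 in Or67d, 0.35 ± 0.247 in fru and 0.65 ± 0.247 in dsx, and these 4 values share the CS libraries. Their edgeR adjusted p were 0.589, 0.23, 0.739 and 0.287, and without fru SH replicate 3 the value in fru was 0.51 ± 0.251 (adjusted p = 0.698). In these 4 interaction tests 0 of 7 members passed, as did 0.0177%, 0.177%, 0.222% and 0.00887% of all genes. In the same order 1, 3, 0 and 2 members had an unadjusted p under 0.05. Of the 11269 genes tested, 935, 1617, 915 and 1506 had one. DESeq2 called 0 members in each and 0.186% to 0.905% of all genes.

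Loss of either pheromone receptor left the 7 members without a call against CS when the housings were averaged. In Or47b 0 of 7 members passed edgeR where 13.4% of all genes did, and in Or67d 0 of 7 where 11.4% did. An unadjusted p under 0.05 was found for 1 and 0 members, and for 3180 and 2581 of the 11269 genes tested. DESeq2 also called 0 in both, where it called 15.9% and 13.4% of all genes. In Or47b roX1 was at log2 0.19 (95% interval -0.07 to 0.45) and roX2 at 0.35 (-0.05 to 0.74). In Or67d roX1 was at log2 -0.19 (-0.45 to 0.07) and roX2 at 0 (-0.41 to 0.41). msl-2 was at log2 0.13 ± 0.061 in Or47b (adjusted p = 0.175) and 0.10 ± 0.0636 in Or67d (adjusted p = 0.362), and the other protein genes lay between -0.13 and -0.03 in both. The intervals of mle were the narrowest, -0.16 to 0.06 in Or47b and -0.15 to 0.09 in Or67d.

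Within GH roX1 stood against CS at log2 -0.53 in Or67d (95% interval -0.90 to -0.16) and -0.08 in Or47b (-0.44 to 0.28). Within SH it stood at 0.15 in Or67d (-0.22 to 0.52) and 0.46 in Or47b (0.10 to 0.82). The intervals of Or47b GH and Or67d SH include 0, so no direction is read from them. The 2 values of a housing share their CS libraries. In GH, Or67d libraries had 4740, 4510 and 3950 CPM of roX1, against 7020, 6060 and 6010 CPM in CS GH, with all Or67d libraries lower, as were 16.7% of all genes (log2 -0.53 ± 0.178, edgeR adjusted p = 0.0622). This was the value nearest to the threshold among 0 of 7 members called where 9.77% of all genes were. It passed within notAC libraries (log2 -0.58 ± 0.173, adjusted p = 0.0405) and with DESeq2 (log2 -0.53, adjusted p = 0.0249), which called 12.3% of all genes, and with the mitochondrial share as a covariate it was log2 -0.18 (adjusted p = 0.448). Mitochondrial shares were 2.51% to 5.41% in Or67d GH, against 4.42% to 10.3% in CS GH. Neuronal markers summed to 5920 to 7120 CPM in Or67d GH, against 7290 to 8480 CPM in CS GH, and haemocyte markers to 48.8 to 60 CPM against 35.1 to 37.5 CPM, and their part in the difference was not tested. In SH, Or47b libraries had 4920, 5860 and 6830 CPM of roX1, against 4820, 3580 and 4380 CPM in CS SH (log2 0.46 ± 0.175, adjusted p = 0.0996), and all Or47b libraries were higher, as were 10.4% of all genes. roX2 stood likewise, with 90.1, 101 and 142 CPM in Or47b SH, against 83.3, 51.9 and 66.6 CPM in CS SH (log2 0.71 ± 0.273, adjusted p = 0.105). Neither passed, nor did any other member in that comparison, where 8.43% of all genes passed. With the mitochondrial share as a covariate roX1 was at log2 0.08 ± 0.122 and roX2 at 0.09 ± 0.183, and within notAC libraries they were at 0.22 ± 0.192 and 0.34 ± 0.31. Mitochondrial shares were 5.96% to 8.65% in Or47b SH, against 2.99% to 4.56% in CS SH. Neuronal markers summed to 6970 to 8060 CPM in Or47b SH, against 5920 to 6710 CPM in CS SH, and their part was not tested. In Or47b GH 0 of 7 members passed where 3.79% of all genes did, and in Or67d SH 0 of 7 where 5.64% did. In the order Or47b GH, Or67d GH, Or47b SH and Or67d SH, 0, 2, 3 and 1 members had an unadjusted p under 0.05. Of the 11269 genes tested, 1780, 2723, 2806 and 1847 had one. In that order DESeq2 called 0, 1, 0 and 0 members, where it called 5.2%, 12.3%, 12% and 7.17% of all genes.

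**Figure D4:**
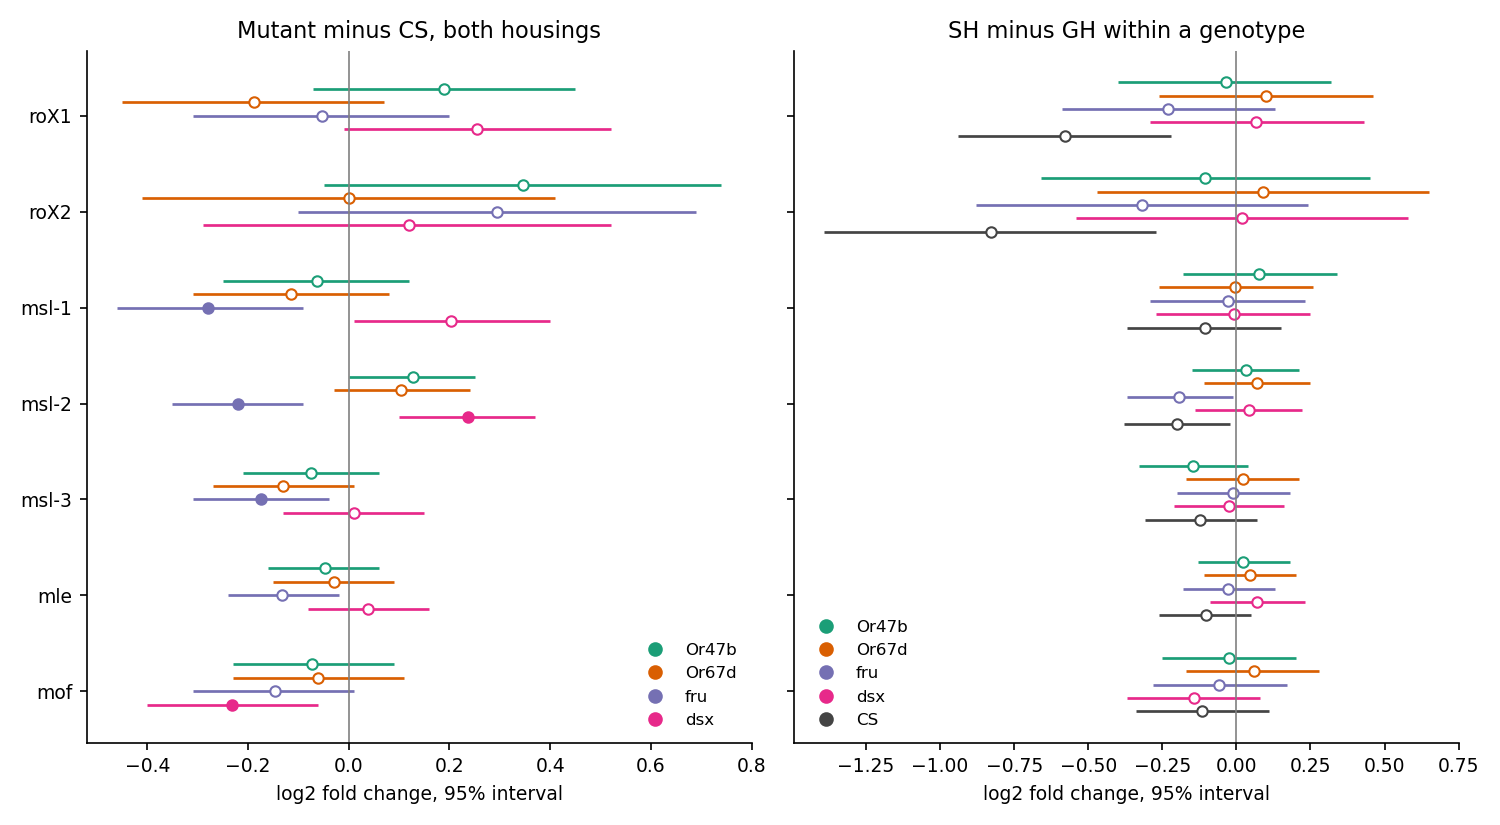
log2 fold changes of the 7 members for each mutant minus CS over both housings (left) and for SH minus GH within each genotype (right). Points are edgeR estimates, lines 95% intervals, and filled points passed at an adjusted p under 0.05. The filled points are msl-1, msl-2 and msl-3 in fru, below 0, and msl-2 above 0 and mof below 0 in dsx, and none is filled on the right.

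In fru mutants 3 genes of the complex were lower than in CS over both housings, msl-1, msl-2 and msl-3. msl-1 had 42.1, 36.1 and 22.9 CPM in fru SH and 37.3, 41.5 and 23.9 CPM in fru GH, against 46.4, 31.7 and 39.4 CPM in CS SH and 43.2, 39.6 and 41.2 CPM in CS GH. msl-2 had 58.1, 53.5 and 35.3 CPM in fru SH and 60.6, 64.5 and 42.1 CPM in fru GH, against 63.2, 45.6 and 60.2 CPM in CS SH and 67.2, 64.4 and 60.5 CPM in CS GH. In both genes the lowest library of each fru group was its AC library, and the fru and CS libraries overlapped. The log2 changes were -0.28 ± 0.0895 for msl-1 (edgeR adjusted p = 0.0228), -0.22 ± 0.0611 for msl-2 (adjusted p = 0.00951) and -0.17 ± 0.0644 for msl-3 (adjusted p = 0.0474). Of all genes 13.6% passed as lower and 27.7% in either direction. mle was at log2 -0.13 ± 0.0538 (adjusted p = 0.0708) and mof at -0.15 ± 0.0775 (adjusted p = 0.169). roX1 and roX2 were at log2 -0.05 ± 0.123 and 0.29 ± 0.192, neither passing, and without fru SH replicate 3 they were at 0.02 ± 0.125 and 0.35 ± 0.202.

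The 3 calls in fru were not kept without the AC libraries. Within notAC libraries, 4 against 4, msl-1 was at log2 -0.10 ± 0.0933 (adjusted p = 0.539), msl-2 at -0.11 ± 0.0585 (adjusted p = 0.245) and msl-3 at -0.08 ± 0.0665 (adjusted p = 0.465). Without fru SH replicate 3, the library with yolk RNA, 1 of the 3 was still called, msl-2 (log2 -0.17 ± 0.0592, adjusted p = 0.0475), while msl-1 was at -0.22 ± 0.0929 (adjusted p = 0.0925) and msl-3 at -0.19 ± 0.0709 (adjusted p = 0.0642). Over the 12 refits without 1 library msl-2 was called in 12, msl-1 in 8 and msl-3 in 3. msl-1 was also not called without fru GH replicate 3 (adjusted p = 0.085), CS SH replicate 1 (0.064) or CS GH replicate 3 (0.108). msl-3 was called only without fru SH replicate 1, fru GH replicate 2 or CS GH replicate 2, and its adjusted p ran up to 0.187 in the others. Over the 12 other settings tried msl-2 was called in 9, msl-1 in 7 and msl-3 in 2. Haemocyte markers (4 of 4 measured) summed to 68.3 to 174 CPM in fru libraries of SH and 70.7 to 130 CPM in those of GH, against 28.3 to 53.7 CPM in CS SH and 35.1 to 37.5 CPM in CS GH. Markers of the male germ line and accessory gland (4 of 4) summed to 8.89 to 9.58 CPM in fru SH and 5.92 to 7.67 CPM in fru GH, against 1.91 to 2.3 CPM in CS SH and 2.24 to 2.99 CPM in CS GH. Nearly all of that sum was betaTub85D, at 1.44 to 9.14 CPM over the 30 libraries. dj, Acp26Aa and Acp36DE reached at most 0.325, 0.192 and 0.315 CPM in any library. The part of these markers in the result was not tested. Within a housing 0 of 7 members passed in fru, where 17% of all genes passed in GH and 13.6% in SH. In GH 4 members and in SH 1 member had an unadjusted p under 0.05, where 3363 and 3075 of the 11269 genes tested did. DESeq2 called 0 members in both, where it called 19% and 16% of all genes. Without fru SH replicate 3, roX1 in SH was at log2 0.27 ± 0.187 and roX2 at 0.67 ± 0.303 against CS (adjusted p = 0.446 and 0.205), and again 0 members passed.

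In dsx mutants msl-2 was higher than in CS and mof was lower. msl-2 had 75.8, 80.5 and 78.3 CPM in dsx SH and 76.7, 75.8 and 75.3 CPM in dsx GH, against 63.2, 45.6 and 60.2 CPM in CS SH and 67.2, 64.4 and 60.5 CPM in CS GH. All 6 dsx libraries lay above all 6 CS libraries. The log2 change was 0.24 ± 0.0636 (95% interval 0.10 to 0.37, edgeR adjusted p = 0.00399). It passed in all 12 refits that left out 1 library each (log2 0.20 to 0.27) and within notAC libraries (log2 0.27 ± 0.0536, adjusted p = 0.000529). With the mitochondrial share as a covariate it was of the same size, log2 0.25 ± 0.108, and did not pass (adjusted p = 0.11). Every dsx library had a mitochondrial share of at least 12.4%, and no CS library had one above 10.3%. All dsx values with this covariate thus rest on a line drawn beyond the CS range. mof had 10.3, 10.9 and 12.2 CPM in dsx SH and 13.1, 10.9 and 12.7 CPM in dsx GH, against 13.9, 9.65 and 12.4 CPM in CS SH and 13.3, 12.1 and 12.8 CPM in CS GH. These libraries overlapped, and the log2 change of mof was -0.23 ± 0.0808 (adjusted p = 0.0218). Within notAC libraries mof did not pass (log2 -0.15 ± 0.0699, adjusted p = 0.0798), nor did it with the mitochondrial share as a covariate (log2 -0.08, adjusted p = 0.725). It was called in 5 of the 12 settings other than leaving out 1 library, and it was not called without dsx SH replicate 1 (adjusted p = 0.0583), dsx GH replicate 2 (0.0645) or CS SH replicate 1 (0.0639).

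These 2 of 7 members, 1 in each direction, stand beside 48.7% of all genes called between dsx and CS, 20.7% higher and 28% lower. msl-1 followed msl-2, with 48.8, 52.9 and 53.4 CPM in dsx SH and 52, 51.7 and 52.3 CPM in dsx GH, against 46.4, 31.7 and 39.4 CPM in CS SH and 43.2, 39.6 and 41.2 CPM in CS GH. All dsx libraries were above all CS libraries for msl-1 as well, as for 15.4% of all genes. Its log2 change of 0.20 ± 0.0934 did not pass (adjusted p = 0.0748), while within notAC libraries it was 0.30 ± 0.0855 (adjusted p = 0.00857), and it was called in 7 of those 12 settings. msl-3 and mle were at log2 0.01 (95% interval -0.13 to 0.15) and 0.04 (-0.08 to 0.16), and roX1 and roX2 at 0.25 (-0.01 to 0.52) and 0.12 (-0.29 to 0.52). Yolk protein genes summed to 646 to 855 CPM in dsx libraries, against 2.99 to 58.5 CPM in CS, and muscle markers to 5.63 to 42.4 CPM against 36 to 148 CPM. Neuronal markers summed to 9690 to 9910 CPM in dsx SH and 8920 to 9580 CPM in dsx GH, against 5920 to 6710 CPM in CS SH and 7290 to 8480 CPM in CS GH, so every dsx library lay above every CS library. The part of these markers in the differences was not tested.

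In single housing alone, roX1 and msl-2 both passed between dsx and CS, 2 of 7 members, both higher, where 42.1% of all genes passed and 18.7% passed as higher. roX1 had 6730, 6230 and 6060 CPM in dsx SH, against 4820, 3580 and 4380 CPM in CS SH (log2 0.58 ± 0.177, edgeR adjusted p = 0.012). msl-2 was at log2 0.36 ± 0.0879 (adjusted p = 0.00244). Every dsx SH library was above every CS SH library for 5 of the 7 members, where 26.2% of all genes did so. With the mitochondrial share as a covariate the roX1 difference was log2 -0.28 ± 0.175 (adjusted p = 0.313), a value that rests on the same line beyond the CS range. It was 0.46 ± 0.177 within notAC libraries (adjusted p = 0.0497). Without CS SH replicate 2 it was 0.46 and did not pass (adjusted p = 0.069). Mitochondrial shares were 12.9% to 14.1% in dsx SH, against 2.99% to 4.56% in CS SH. In GH roX1 had 6260, 5810 and 6090 CPM in dsx, against 7020, 6060 and 6010 CPM in CS. There 0 of 7 members passed, where 21.7% of all genes did, and DESeq2 called 0 (23.4% of all genes). An unadjusted p under 0.05 was found for 0 members and for 3883 of the 11269 genes tested. Set against the mitochondrial share, roX2 was low in dsx. With that covariate it was at log2 -0.93 ± 0.196 over both housings (adjusted p = 0.00238), but no CS library had a share above 10.3%, so this value rests on a line drawn beyond the CS range.

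Genes that work with the MSL complex were read from 3 lists. The first held 12 partners and regulators, among them Clamp, which recruits the complex to the X, Zn72D, which is needed for splicing of mle RNA, and Sxl, Unr and how, known for repressing msl-2 RNA in females. All 12 were tested. For housing 0 of the 12 were called in each of the 5 genotypes, and 0 of 12 in Or47b and in Or67d against CS, where 13.4% and 11.4% of all genes were. In fru 3 of 12 were called, all lower, namely Rm62 (log2 -0.26 ± 0.0839), an RNA helicase, Zn72D (-0.17 ± 0.0519) and the chromatin remodeller Iswi (-0.17 ± 0.0567), where 13.6% of all genes were called lower and 27.7% in either direction. The list's median was log2 -0.12, against -0.02 for all genes tested. Zn72D was still called within notAC libraries (log2 -0.18 ± 0.062, adjusted p = 0.0482) and Iswi (-0.11 ± 0.0637, adjusted p = 0.299) and Rm62 were not, although Rm62 was of the same size as over all libraries (-0.26 ± 0.102, adjusted p = 0.099). With the mitochondrial share as a covariate all 3 were called. Without fru SH replicate 3, Zn72D (adjusted p = 0.0479) and Iswi (adjusted p = 0.0355) were still called and Rm62 was not (adjusted p = 0.0874).

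In dsx 3 of the 12 were called, all higher, Sxl, how and Unr, where 20.7% of all genes were called higher and 48.7% in either direction. Sxl averaged 628 ± 22.8 CPM in dsx SH and 548 ± 10.1 CPM in dsx GH, against 329 ± 23.4 CPM in CS SH and 450 ± 60.3 CPM in CS GH (SD, n = 3 each). Its log2 change was 0.64 ± 0.134 (edgeR adjusted p = 0.000506). These are counts over the whole gene, and male and female transcripts of Sxl, which differ by splicing, were not separated. how averaged 15.1 ± 0.315 and 15.4 ± 0.756 CPM in dsx SH and dsx GH, against 12.8 ± 1.6 and 11.7 ± 1.37 CPM in CS SH and CS GH (log2 0.38 ± 0.118, adjusted p = 0.01). Unr was at log2 0.38 ± 0.131 (adjusted p = 0.0209). The median of the list was log2 0.07, against -0.05 for all genes. Within notAC libraries Sxl (log2 0.54, adjusted p = 0.00628) and how (log2 0.40, adjusted p = 0.0291) were still called and Unr was not. With the mitochondrial share as a covariate none of the 3 passed, with Sxl at log2 -0.06 (adjusted p = 0.802), how at 0.02 (adjusted p = 0.953) and Unr at -0.23 (adjusted p = 0.331). These values too rest on a line drawn beyond the CS range of shares.

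The second list held 6 genes of the NSL complex, the other complex that holds MOF and acts at promoters of both sexes. In dsx 2 of 6 were called, both lower, dgt1 (log2 -0.30 ± 0.0542, edgeR adjusted p = 9.58e-05) and Rcd5 (-0.25 ± 0.0465, adjusted p = 0.000165), where 28% of all genes were called lower. Both were still called within notAC libraries, and neither with the mitochondrial share as a covariate, where dgt1 was at log2 -0.13 ± 0.0816 (adjusted p = 0.266) and Rcd5 at -0.07 ± 0.0641 (adjusted p = 0.46). In dsx that covariate again reaches beyond the CS range of shares. In fru 1 of 6 was called, nsl1 (log2 -0.19 ± 0.0657), lower as were 13.6% of all genes, which did not pass within notAC libraries (-0.15 ± 0.0773, adjusted p = 0.222) or with the mitochondrial share (adjusted p = 0.0511). The third list held 4 other chromosome-wide factors. In dsx 2 of 4 were called lower, beside the same 28% of all genes. They were Pof (log2 -0.22 ± 0.0499, adjusted p = 0.00104), which marks the fourth chromosome, and the gene of the heterochromatin protein HP1a (-0.13 ± 0.0551, adjusted p = 0.0463). Within notAC libraries Pof was called and the HP1a gene was of the same size but not called (-0.13 ± 0.0595, adjusted p = 0.0775). With the mitochondrial share Pof was not called (-0.18 ± 0.0844, adjusted p = 0.135) and the HP1a gene was (-0.27 ± 0.0863, adjusted p = 0.0354), the 1 of the 7 list genes called in dsx that passed with that covariate. Both values rest on the same line beyond the CS range. In fru 1 of 4 was called, egg (log2 -0.19 ± 0.0632), a histone methyltransferase gene, and it did not pass within notAC libraries (-0.09 ± 0.0727, adjusted p = 0.472) but did with the mitochondrial share (-0.15 ± 0.0485, adjusted p = 0.0269). Without fru SH replicate 3 neither nsl1 (adjusted p = 0.12) nor egg (adjusted p = 0.0751) was called. In Or47b, Or67d and each housing comparison 0 genes of both lists were called.

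The output of the X itself was read as the X-linked share of nuclear gene counts in a library. It was 18.4% to 19.9% over the 30 libraries. The share averaged 19.2% ± 0.596 in Or47b, 18.8% ± 0.257 in Or67d, 19.1% ± 0.464 in fru and 18.7% ± 0.221 in dsx, against 19.1% ± 0.204 in CS (SD, n = 6 each). The dsx libraries were 0.395 points lower on average, with 4 of 6 below all CS libraries (a difference of -0.395, 2-sided exact permutation test, p = 0.0108, adjusted p = 0.0433 over 4 mutants). In Or67d the difference was -0.245 points (exact permutation adjusted p = 0.208), in fru 0.012 (0.948) and in Or47b 0.117 (0.846). The smallest p that 6 against 6 can give is 0.00216. Within notAC libraries the dsx share was 18.7% ± 0.221 (n = 6), against 19.1% ± 0.232 in CS (n = 4), a difference of -0.455 points (exact permutation adjusted p = 0.114). Read instead as the median log2 level of X-linked minus that of autosomal genes, dsx differed from CS by 0.002 (exact permutation adjusted p = 0.898). In each of 12 recalculations without 1 library the dsx share was lower, but it was called only without dsx SH replicate 1 or CS SH replicate 1 (-0.451 and -0.436 points, exact permutation adjusted p = 0.0346 in both). In the others the adjusted p was 0.0519 or 0.0866. The fru difference was -0.076 points without fru SH replicate 3 (exact permutation adjusted p = 0.727). The 4 AC libraries of Or47b and fru had 19.5% to 19.9%, above every CS library.

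Single genes of the X were then set beside those of the autosomes. With the members left out, 1874 X-linked and 9346 autosomal genes were tested. Between dsx and CS, 18.9% of X-linked genes were called higher and 32% lower, against 21% and 27.2% of autosomal genes, with median log2 changes of -0.08 on the X and -0.04 on the autosomes. In fru 12.5% of X-linked genes were called higher and 12.5% lower, against 14.3% and 13.9% of autosomal genes. These shares were 10.3% and 9.3% on the X without fru SH replicate 3, against 12.4% and 10.7% on the autosomes. For CS housing, where roX1 was 33% lower in SH, the medians were log2 0.005 on the X and 0 on the autosomes, with 0.427% of X-linked genes called higher and 0.534% lower, against 1.06% and 0.995% of autosomal genes. The lower roX1 of Or67d GH stood beside medians of log2 -0.011 on the X and -0.015 on the autosomes, with 2.4% of X-linked genes called higher and 1.81% lower, against 5.67% and 5.23% of autosomal genes.

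**Figure D5:**
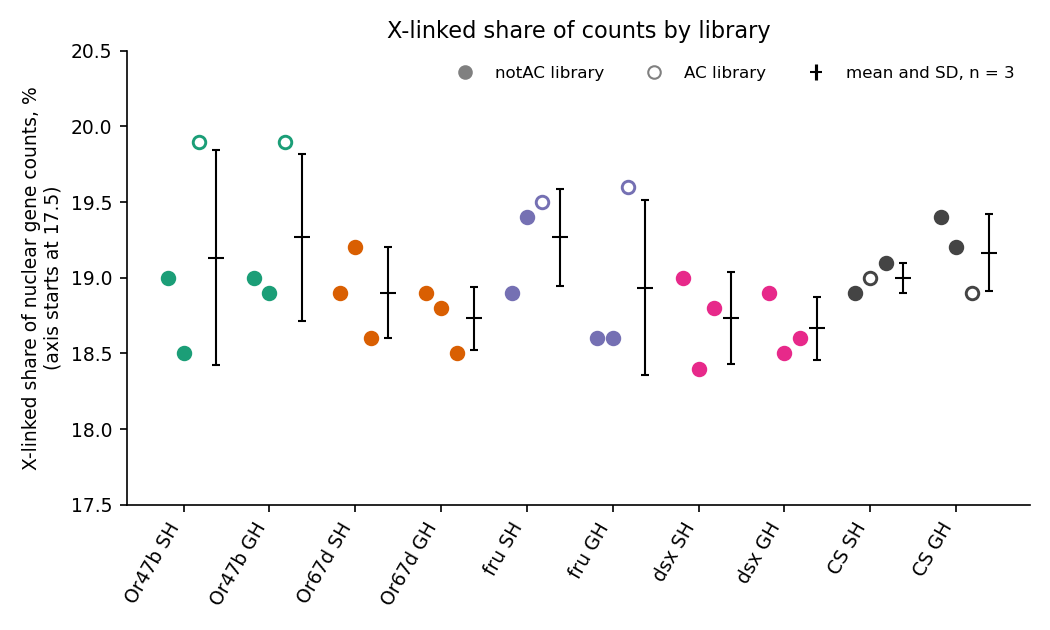
X-linked share of nuclear gene counts in each library, in %, by genotype and housing, on an axis that does not start at 0. Points are libraries, open points are AC libraries, and bars are the mean and SD of 3 libraries. The dsx libraries lie at 18.4% to 19.0%, against 18.9% to 19.4% in CS, and the AC libraries of Or47b and fru are the highest of their groups.

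Within the complex, the 2 roX RNAs went together across libraries, and so did msl-1, msl-2, msl-3 and mle, while mof went with these 4 only where AC libraries were included. Pearson's r of log2 CPM between roX1 and roX2 was 0.80 over 30 libraries and 0.75 over the 24 notAC libraries. Between msl-1 and msl-2 it was 0.91 and 0.79, and between msl-1 and mle 0.88 and 0.69. The lowest value among these 4 genes was that of msl-3 with mle, 0.64 and 0.48. roX1 and msl-2 were at 0.32 and 0.37. mof was at 0.61 to 0.71 with the other 4 protein genes over all libraries, but at -0.25 with msl-1, -0.25 with msl-2, 0.01 with msl-3 and -0.04 with mle over the notAC libraries. These values describe libraries that share scaling, genotype and AC, and have no test.

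The genes whose levels were most like those of roX1 over 30 libraries were CG40498 (r = 0.929), Taf3 (0.911) and lncRNA:CR43148 (0.91). Over the 24 notAC libraries they were ben (0.956), the mitochondrial ribosomal RNA gene mt:lrRNA (0.951) and CG40498 (0.95). For roX2 they were Uhg4, a host gene of small nucleolar RNAs (0.912), Dpm3 (0.885) and RNASEK (0.864), and the same 3 genes led over the notAC libraries. The genes most like msl-2 were numb (0.956), alpha-Man-IIb (0.955) and Ogdh (0.952), and those most like mle were Asap (0.965), Hcs (0.962) and CG15236 (0.954). The genes most like msl-1 were CG12851 (0.982), jef (0.978) and Patr-1 (0.974). For msl-3 the nearest gene was at 0.881 and for mof at 0.894, the lowest values of the protein genes. The genes next to roX1 and roX2 were expressed at much lower levels, with yin at 20.9 to 36.2 CPM beside roX1, and CG11695 at a median of 15.3 CPM and nod at 3.46 to 6.04 CPM on either side of roX2.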

How the data were processed

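Brains of male flies were dissected in pools of 30, polyadenylated RNA was extracted, and stranded libraries were sequenced as paired-end reads, per the labels' protocols. The deposited table of estimated counts holds values per feature, of which 11.9% were not whole, which does not show whether they had been scaled. A deposited table of normalized signal, which covers 11335 features, was used only as an alternative. Its ratio to the estimated counts varied between genes of a library, by 1.15 to 1.82 times from the 5th to the 95th percentile over 3979 genes with at least 1000 counts, and the method is not given in the sources used here. The submitters' processing notes name the build BDGP6 and the tools DESeq2, Salmon and STAR, without versions. Groups were taken from the labels, and AC from a deposited column named dissection that has no key.

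Of 24278 features, 17895 genes were kept, and the others took 0.6% to 1.378% of counts. Counts were rounded and tested with edgeR 4.0.16 in R 4.3.3 by quasi-likelihood tests in 1 fit of all 30 libraries, with a term per group and 1 for AC, after filterByExpr and TMM scaling. P-values were adjusted by Benjamini-Hochberg over 11269 genes in each of 22 comparisons and in AC minus notAC, and called under 0.05. Levels are CPM of TMM-scaled gene counts, and intervals of changes are 95%. The alternatives were other scalings and filters, no AC term, notAC libraries only, a replicate block, the mitochondrial share as a covariate, limma 3.58.1 on log2 of the deposited signal plus 1, DESeq2 1.42.0, only the groups compared, and leaving out each library. The pipeline was tested on simulated data. The X-linked share was tested by exact permutation over libraries. All 7 members, up to 4 called genes of each list, and the 3 genes most like each member by Pearson's r of log2 CPM (prior count 2) were named. The members and lists were chosen with earlier results of these data known.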

Additional observations from a re-analysis of the deposited data

How the results depend on the processing

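The number of the 7 members called moved by over 1.5 times in these cases. In CS housing DESeq2 called 1, where it called 5.56% of all genes. The share of all genes in that comparison was 1.86% in the main fit and 0.165% with only the groups compared. Such shares changed with the setting. They are not printed for the counts below, which show only how the calls moved and are not read against all genes. For mutants against CS over both housings, limma on the deposited signal called 1 in Or47b and 1 in Or67d (msl-2 in both, higher). In fru, where 3 were called, the count was 0 without the AC term, 0 in notAC libraries, 0 with only the groups compared, 1 with all features and 1 with limma, and 5 other settings called 2, without msl-3. In dsx over both housings these settings called 2 or 3, but not the same genes. Of 12 settings, msl-2 was called in 11, msl-1 in 7, mof in 5, roX1 in 2 and roX2 in 1. In GH, Or67d had 1 in notAC libraries, 1 with the mitochondrial share and 1 with DESeq2, fru had 1 with the mitochondrial share, and dsx had 2 with the mitochondrial share, 1 with limma and 3 with only the groups compared. In SH, limma called 1 in Or47b, 1 in Or67d and 1 in fru, and dsx, with 2 called, had 1 with the mitochondrial share, 4 with limma and 4 with only the groups compared. The difference in housing change of dsx from CS had 2 with only the groups compared. Leaving out 1 library gave 0 to 1 calls in Or47b, 1 to 5 in fru and 1 to 3 in dsx over both housings, 0 to 3 in fru and 0 to 1 in dsx in GH, and 0 to 1 in fru and 1 to 2 in dsx in SH. roX1 in dsx SH against CS SH reversed to log2 -0.28 with the mitochondrial share, on a line drawn beyond the CS range of shares. The X-linked share of dsx was -0.455 points in notAC libraries and -0.395 with a replicate block, neither passing (adjusted p = 0.114 and 0.25), -0.451 to -0.328 points when 1 library was left out, and 0.002 log2 units when read as the median log2 level of X-linked minus autosomal genes. For each of these the cause was not tested. Same-numbered SH and GH replicates deviated together (r over 0.1) in 6 of 15 pairs, so the numbers were not treated as pairing the samples. The highest r were those of replicate 3 of Or47b (0.43) and of fru (0.52), which are AC libraries. Same-numbered replicates of a mutant and CS, which the block of the X share matched, were not checked. The block ended the call of msl-3 in fru (adjusted p = 0.0588) and that of the X share of dsx, and no other call of a member. Taking mitochondrial genes out before scaling, and roX1 and roX2 out of the X share, were chosen after the data had been seen. With the first, mof in dsx and msl-3 in fru did not pass (adjusted p = 0.0533 and 0.0551), and with the second the dsx difference was -0.435 points. With 3 pools per group, changes smaller than the widths of the intervals given could be missed. The fit with only the groups compared was not run for the average over 5 genotypes, which uses all groups.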
